A study of Mus musculus with 2 samples.

Results

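Oxytocin neurons were taken from a droplet library of sorted hypothalamic nuclei as the nuclei in which the oxytocin transcript, Oxt, was abundant. A nucleus was counted as an Oxt nucleus when its barcode held at least 500 genes, exactly 1 positive hashtag, at least 10 Oxt UMIs (unique molecular identifiers, each standing for 1 captured transcript), at least 1000 Oxt CPM (UMIs per 1000000 gene UMIs), and more Oxt than Avp UMIs. Of 4904 single-tag nuclei, 151 met this rule, which is 3.08% (95% Clopper-Pearson interval 2.61–3.60). The rule used Oxt and Avp themselves, so their levels in these nuclei are a description of the choice and not a result.

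The nuclei came from the paraventricular hypothalamus (PVH) of 17 mice, collected at 4 weeks of age. Every animal carried Sim1-Cre, a recombinase driven by the promoter of the PVH transcription factor Sim1, and a Sun1-GFP reporter, which tags the nuclear membrane with GFP once Cre has acted. GFP-positive nuclei were sorted, so only cells with a history of Sim1-Cre and the sort's impurities could be sampled. The groups were 7 Sim1-Cre; Sun1-GFP mice, 4 Sim1-Cre; Sun1-GFP; Otp fl/+ mice with a Cre-sensitive allele over a wild-type allele of Otp, a homeobox gene needed for neuroendocrine neurons, and 6 Sim1-Cre; Sun1-GFP; Otp Q153R/+ mice with a glutamine-to-arginine change in 1 Otp allele. The mice of a genotype were pooled under 1 hashtag and all nuclei went into 1 gene-expression library. The deposited tag names were Ctrl, KD and Q153R. Ctrl and Q153R matched genotypes in the labels, while KD was matched to Otp fl/+ by elimination alone, so the groups are called the pools labelled Ctrl, KD and Q153R, and values of the 3 pools are given in that order. With 1 pool per genotype no test of genotype was possible, and every interval below covers counting error only, not the spread between mice.

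Oxytocin is a peptide hormone made by magnocellular neurons, which send axons to the posterior pituitary and release it into the blood, and by parvocellular neurons, which project within the brain. It drives uterine contraction and milk ejection and acts on social behaviour, feeding and stress responses. The neighbouring gene Avp encodes the related hormone vasopressin, and the PVH makes both hormones in largely separate cells under a shared set of transcription factors that includes Sim1, Otp and Pou3f2.

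Oxt and Avp lie tail to tail on mouse chromosome 2 (mm10). Oxt spans 130576173 to 130577054 on the plus strand, Avp spans 130580620 to 130582554 on the minus strand, and 3565 bases separate them. The 250 bases upstream of each start site in RefSeq (GRCm38.p6) are shown because these 2 genes define the Oxt nuclei and the population most like them. Each is printed 5′ to 3′ on the strand of its gene, and capitals mark matches to the nuclear receptor motif AGGTCA on either strand.
Oxt, chr2:130575919-130576168, plus strand: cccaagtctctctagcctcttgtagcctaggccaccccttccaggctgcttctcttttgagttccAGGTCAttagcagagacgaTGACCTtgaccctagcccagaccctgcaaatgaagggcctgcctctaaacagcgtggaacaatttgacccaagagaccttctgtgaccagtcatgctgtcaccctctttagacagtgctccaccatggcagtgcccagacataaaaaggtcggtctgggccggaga
Avp, chr2:130582589-130582838, minus strand: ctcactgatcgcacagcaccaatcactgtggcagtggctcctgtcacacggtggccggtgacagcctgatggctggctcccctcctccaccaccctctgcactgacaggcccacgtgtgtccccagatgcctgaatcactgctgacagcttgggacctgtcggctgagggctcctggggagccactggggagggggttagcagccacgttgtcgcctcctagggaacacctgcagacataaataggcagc
In the Oxt sequence AGGTCA was found from base -185 on the printed strand, and its reverse complement TGACCT from base -166, counted from the start site. No AGGTCA match was found in the Avp sequence. Of 32851 promoter sequences of the same length, 14.0% held AGGTCA on either strand. None of the 4 other motifs searched on both strands was found in either sequence: TACGTG (2.72% of promoters), TAATTA (4.84%), ATGCAAAT (1.60%) and TGTTTAC (3.17%). These are matches of letters and not measured binding sites.

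The library held 6173 barcodes, of which 6157 passed the gene minimum, 1124 carried more than 1 tag and 129 carried none. Among the barcodes with more than 1 tag, 100 (8.90%) met the Oxt criteria and were left out. The Oxt nuclei were 65, 36 and 50 in the pools labelled Ctrl, KD and Q153R, with 536889, 297270 and 292958 gene UMIs in all. Their median depth was 7855, 7355.5 and 5779.5 UMIs, against 5269, 5894 and 4608 in the other single-tag nuclei. The Q153R pool was therefore the shallowest in both, and the minimum of 10 Oxt UMIs bears hardest on it. The pools also differed in sex mix: nuclei with at least 3 Xist UMIs and no Y-linked UMI, as in females, made up 72.3%, 83.3% and 54.0% of the Oxt nuclei. The highest mitochondrial share in an Oxt nucleus was 0.362%.

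Of the marker genes given for oxytocin neurons, 3 were not used by the rule. Lgr6, an R-spondin receptor, stood at 24.2, 70.6 and 61.4 CPM, summed over nuclei, against 1.99 CPM in all other single-tag nuclei. In the glial-marker nuclei described below it was at 29.1 CPM, so it does not mark Oxt nuclei alone. A Lgr6 UMI was found in 27 of 151 Oxt nuclei, so most of them showed none at this depth. Oprk1, the kappa opioid receptor through which dynorphin restrains oxytocin release, stood at 138, 185 and 174 CPM against 17.1 CPM. Sim1 stood at 901, 878 and 963 CPM against 429 CPM. All 3 were higher in the Oxt nuclei of every pool, Sim1 by the smallest factor. Markers of other cell types were compared with their level in the other nuclei: the 8 GABAergic markers summed to 12.4 CPM against 115 CPM in the other nuclei, and 145 of 151 Oxt nuclei had no UMI of any of them. Astrocyte markers were higher than elsewhere, at 60.3 against 45.0 CPM summed over 8 genes, and uneven, at 18.6, 168 and 27.3 CPM. Of their 68 UMIs 50 lay in the KD pool (62.7 CPM in its other nuclei), 27 of them in 1 nucleus, and 143 Oxt nuclei had none. Microglia markers were at 39.0 against 52.1 CPM and oligodendrocyte markers at 36.4 against 146 CPM. In all, 5 Oxt nuclei held 5 or more UMIs of another cell type's markers. Vcan and Col23a1, on the lists for oligodendrocyte precursors and for ependymal cells and tanycytes, were left out of these sums. The reason was that over all pools they were higher in Oxt nuclei than in other nuclei, while the other markers of those types were near 0 (0 to 3.41 CPM summed in any pool). Col23a1 had no UMI in the Oxt nuclei of the KD pool, where its whole list summed to 0 CPM.

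Oxt itself was spread over a wide range within the chosen nuclei. The lowest, median and highest nucleus held 1149, 8949 and 63291 CPM of Oxt in the pool labelled Ctrl, 1068, 8999 and 47847 in KD, and 1890, 8093 and 27470 in Q153R. Most nuclei, 114 of 151, lay between 3000 and 15000 CPM, with 16 below and 21 above. Among nuclei with at least 10 Oxt UMIs, the rule's CPM edge was thinly filled. The nuclei just inside held 1068, 1149 and 1366 CPM, and those just outside included 1 with 14 Oxt UMIs at 755 CPM. The UMI minimum alone left out further nuclei within the range of the Oxt nuclei. These included 1 with 9 Oxt UMIs at 2198 CPM, 1 with 6 at 3293 CPM and 1 with 5 at 5525 CPM. The Oxt nuclei held 72.3% of all Oxt UMIs of single-tag nuclei.

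The remaining Oxt UMIs were spread thinly over the other nuclei. The other single-tag nuclei had 139, 127 and 157 CPM of Oxt, and 2400 of 4753 had no Oxt UMI. Nuclei with glial markers and no Sim1 UMI, which should lack the gene, held Oxt at 267 CPM, and GABAergic-marker nuclei without Sim1 at 122 CPM. At an equal depth of 2000 UMIs, an Oxt UMI was found in 33.0% of the glial-marker nuclei (median depth before thinning 2579 UMIs) and 21.3% of the GABAergic-marker nuclei (5968 UMIs). The share in all other single-tag nuclei, 24.2% (5191 UMIs), lay between these. Whether a low Oxt count in a single nucleus is background or expression was not tested.

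Avp, which the rule held below Oxt, is given for these nuclei as a description. Its level was 209, 286 and 259 CPM, against 184 CPM in glial-marker and 123 CPM in GABAergic-marker nuclei without Sim1, and 11101 CPM in the 222 Avp nuclei chosen by the mirrored rule. Of 151 Oxt nuclei, 49 had no Avp UMI, 87 had 1 to 4, and 15 had 5 or more, with a maximum of 11. After thinning to 2000 UMIs, 37.7% of Oxt nuclei held an Avp UMI (interval 29.8–46.1), beside 29.5% of glial-marker nuclei (20.3–40.2) and 18.6% of GABAergic-marker nuclei (14.4–23.5). Without thinning the Oxt share was 67.6%. Only 3 single-tag nuclei of any kind held both transcripts at 10 or more UMIs and 1000 or more CPM.

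**Figure D1:**
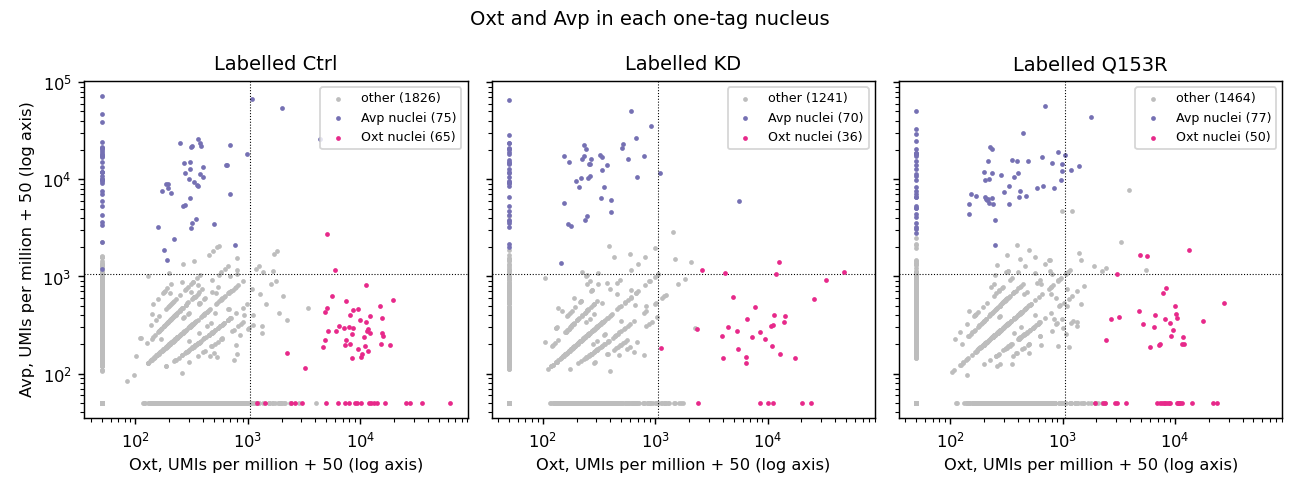
Oxt against Avp in every single-tag nucleus, 1 panel per hashtag label, both axes as CPM plus 50 on log scales; dotted lines mark 1000 CPM. The Oxt nuclei (65, 36 and 50) form a group at the lower right of each panel, apart from the Avp nuclei at the upper left, with few nuclei at high values of both.

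**Figure D2:**
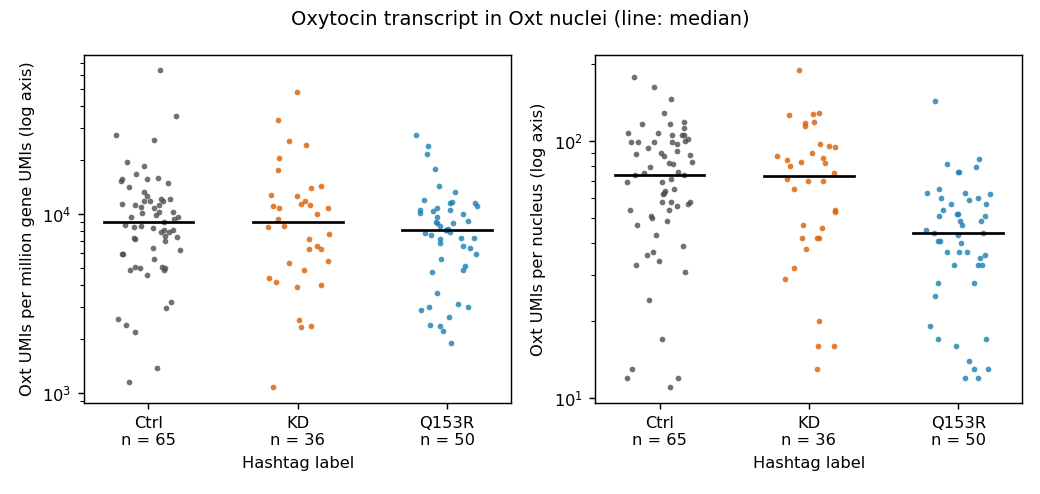
Oxt in each Oxt nucleus by hashtag label, as CPM (left) and as raw UMIs (right), on log axes; lines are medians. The CPM medians are 8949, 8999 and 8093, and the raw medians of 74, 73 and 44 UMIs also carry the lower depth of the Q153R pool.

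Oxt nuclei were next compared with all 4753 other single-tag nuclei, a contrast that the choice of nuclei enters through every gene that goes with Oxt, so it is described without a test. Among 4537 genes with at least 50 UMIs in the Oxt nuclei, either observed or expected from the other nuclei, 116 (2.56%) were at least 2 times higher in each of the 3 pools and 120 (2.64%) were at most 0.5 times as high. Of the 116, 70 met the minimum only by their observed UMIs and of the 120, 69 only by their expected UMIs, so each of these could lie on 1 side only. The median log2 ratio of all counted genes was 0.02.

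The forkhead factor Foxp2, best known for its part in the development of speech and motor circuits, was among the genes that most set the Oxt nuclei apart. It stood at 2049, 2190 and 2007 CPM, against 185, 270 and 234 CPM in the other nuclei, a ratio of 9.19 (8.76–9.65) over all pools. At 2000 UMIs per nucleus 90.4% of Oxt nuclei held a Foxp2 UMI, beside 13.3% of other nuclei, 9.09% of glial-marker nuclei and 2.99% of GABAergic-marker nuclei. In the Avp nuclei, which are among the other nuclei, the share was 67.6% (60.8–74.0). Foxp2 was therefore both abundant and present in nearly every Oxt nucleus. Mdfic, a MyoD-family inhibitor, is the next protein-coding gene on the same strand of chromosome 6, beginning 278683 bases beyond the end of Foxp2. It was nearly absent from other nuclei, at 51.5 CPM in Oxt nuclei (58 UMIs, in 34 nuclei) against 0.938 CPM, but its level differed among the pools, at 80.1, 23.5 and 27.3 CPM.

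Of the 60 listed PVH transcription factors, 24 were counted, of which 3 were higher and 6 lower in all pools, with a median log2 ratio of -0.55. Over all counted genes 2.56% were higher and 2.64% lower, and the list counts below are to be read beside these shares. Listed genes entered by the same UMI minimum, so many of those called could lie on 1 side only. Foxp1, a paralogue and dimer partner of Foxp2, stood at 572, 595 and 676 CPM against 222 CPM in other nuclei (ratio 2.72, 2.51–2.95). Pou3f2, the POU factor needed for oxytocin and vasopressin neurons, stood at 179, 172 and 171 CPM against 39.0 CPM (4.48, 3.82–5.22). Its level was nearly the same in the 3 pools. Arnt2, the dimer partner of Sim1, did not set the nuclei apart, at 250 CPM against 264 CPM. The 6 lower factors were Bcl11a (1.77 against 73.1 CPM), Ebf1 (52.3 against 252 CPM), Ebf2 (8.87 against 47.2 CPM), Ebf3 (11.5 against 90.1 CPM), Nfib (18.6 against 94.1 CPM) and Klf12 (201 against 518 CPM). Outside the list, the zinc-finger homeobox factor Tshz3 was at 152.6 CPM against 28.4 CPM.

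Receptor genes went both ways. Among 7 counted peptide receptors, Oprk1 and Lgr6 were higher and 4 were lower: Calcr, the calcitonin receptor (3.55 against 108 CPM), Agtr1a, the angiotensin receptor (8.87 against 76.8 CPM), Hcrtr2, an orexin receptor (16 against 66.1 CPM), and Oprm1, the mu opioid receptor (25.7 against 94.4 CPM). Each of these called receptors met the UMI minimum only through the nuclei where it was high, so its side was fixed by the minimum. Among opioid receptors, kappa was high and mu low. Calcr was near absent, with 4 UMIs over all Oxt nuclei. Of the listed peptide receptors 46 of 53 had too few UMIs to be counted, among them Oxtr, the oxytocin receptor itself, so no statement is made on them. Among 16 counted steroid, thyroid and cytokine-type receptors, Esr2 was higher and Nr3c1 lower, and the side of both was likewise fixed by the minimum. Esr2, oestrogen receptor beta, stood at 63.3, 90.8 and 109 CPM against 8.55 CPM (9.65, 7.50–12.3), while Esr1, oestrogen receptor alpha, was at 56.8 CPM against 40.2 CPM. Nr3c1, the glucocorticoid receptor, stood at 37.3, 10.1 and 23.9 CPM against 127 CPM.

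Receptors for amine and cholinergic transmitters showed the same mixed pattern, with 2 of 7 counted genes higher and 3 lower. Chrm2, a muscarinic receptor, stood at 479, 515 and 515 CPM against 210 CPM (2.37, 2.17–2.58), and Adra1a, the alpha-1A adrenergic receptor, at 68.9, 97.6 and 154 CPM against 35.0 CPM (2.81, 2.29–3.43). The lower genes were the serotonin receptors Htr2c (61.2 against 446 CPM) and Htr7 (23.1 against 58.0 CPM) and the muscarinic receptor Chrm3 (40.8 against 195 CPM). Muscarinic receptors therefore differed in direction within 1 family. Hrh1, a histamine receptor, was 2.01 times as high (1.5–2.63) but below 2 in the pool labelled Q153R.

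Of 22 counted genes for making, packing and releasing peptides, 1 was higher and 4 were lower, beside 2.56% and 2.64% of all counted genes. Their median log2 ratio was -0.26. Cadps2, which primes dense-core vesicles for release, stood at 803, 653 and 1202 CPM against 316 CPM (2.74, 2.56–2.93). Its paralogue Cadps was at 1234 CPM against 791 CPM, a ratio of 1.56 that was similar in each pool. The convertase Pcsk1 was at 225 CPM against 140 CPM and Pcsk2 at 429 CPM against 773 CPM. Scg2, a granin, was lower at 83.8, 50.5 and 47.8 CPM against 247 CPM, as were Vgf (19.5 against 62.1 CPM), Rph3a (24.8 against 60.4 CPM) and Rab3b (6.21 against 53.6 CPM). Of the 10 counted genes on the list of oxytocin release, none was higher in all pools and Ryr3, an intracellular calcium release channel, was lower (127 against 287 CPM). Plcb1, an effector of Gq-coupled receptors, came close to the fold, at 1.83, 2.31 and 1.90 times.

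Other peptides and transmitters were few. Of 36 measured peptide genes on the list 4 were counted, and Cbln4, a secreted synaptic organiser, was higher at 47.9 CPM against 14.4 CPM (3.33, 2.45–4.43), while Trh (7.99 against 58.4 CPM) and Penk (7.99 against 47.0 CPM) were lower. Pdyn, which encodes dynorphin, the ligand of the kappa opioid receptor, had 20.4 CPM against 8.89 CPM but too few UMIs to be counted. Nos1, which makes the gaseous transmitter nitric oxide, stood at 121, 101 and 147 CPM against 32.3 CPM (3.79, 3.14–4.54). Slc17a6, the vesicular glutamate transporter, was at 107 CPM against 132 CPM, and Gad2, which makes GABA, at 7.10 CPM against 67.3 CPM. The nuclei thus carried the glutamate transporter at about the common level and very little of the GABA enzyme.

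Of 43 counted potassium, HCN and calcium channel genes, none was higher and 3 were lower in all pools: Kcnj3, a G-protein-gated inward rectifier (81.6 against 526 CPM), Kcnh5 (15.1 against 89.9 CPM) and Trpm3 (420 against 1221 CPM). Among 24 counted imprinted genes none was higher and 3 were lower: Dlk1 (37.3 against 199.7 CPM), Peg10 (16.9 against 92.3 CPM) and Calcr. Activity genes were scarce, with 2 of 22 counted. Of these, Vgf was lower, as given above, and Homer1 was at 81.6 CPM against 162 CPM.

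The remaining genes in the top ranks were of mixed kinds. Galnt14, a glycosyltransferase of the Golgi, was at 261, 185 and 215 CPM against 25 CPM (9.16, 7.91–10.6), and Fign, a microtubule-severing ATPase, at 1285, 1362 and 1440.5 CPM against 179 CPM (7.54, 7.11–7.99). Fam19a1, a secreted chemokine-like protein, was at 1961, 2721 and 1912 CPM against 294 CPM (7.32, 6.99–7.66). For these 3 genes the pools differed less from each other than from the other nuclei. Caprin2, an RNA-binding protein, was at 400 CPM against 64.6 CPM, Stxbp6, which binds the release machinery, at 561 CPM against 101 CPM, and Cntn4, an axonal contactin, at 3714 CPM against 779 CPM. The secreted or matrix genes Adamts12 (94.9 against 8.55 CPM), Rspo3 (61.2 against 7.46 CPM), Col8a1 (105 against 17.2 CPM) and Vcan (152.6 against 28.1 CPM) were also among the 20 highest. Rspo3 encodes a ligand of the Lgr receptor family to which Lgr6 belongs. The remaining ones were Clec18a, Lrrc9 and the long transcripts Gm43122 and AC129186.1, at ratios of 5.22 to 10.2. At the other end, Robo1, a guidance receptor, was at 186 CPM against 1350 CPM, and Unc13c, Gm20754, Arhgap6, Kctd16 and Pcdh11x stood at 0.0765 to 0.143 of the level elsewhere.

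**Figure D3:**
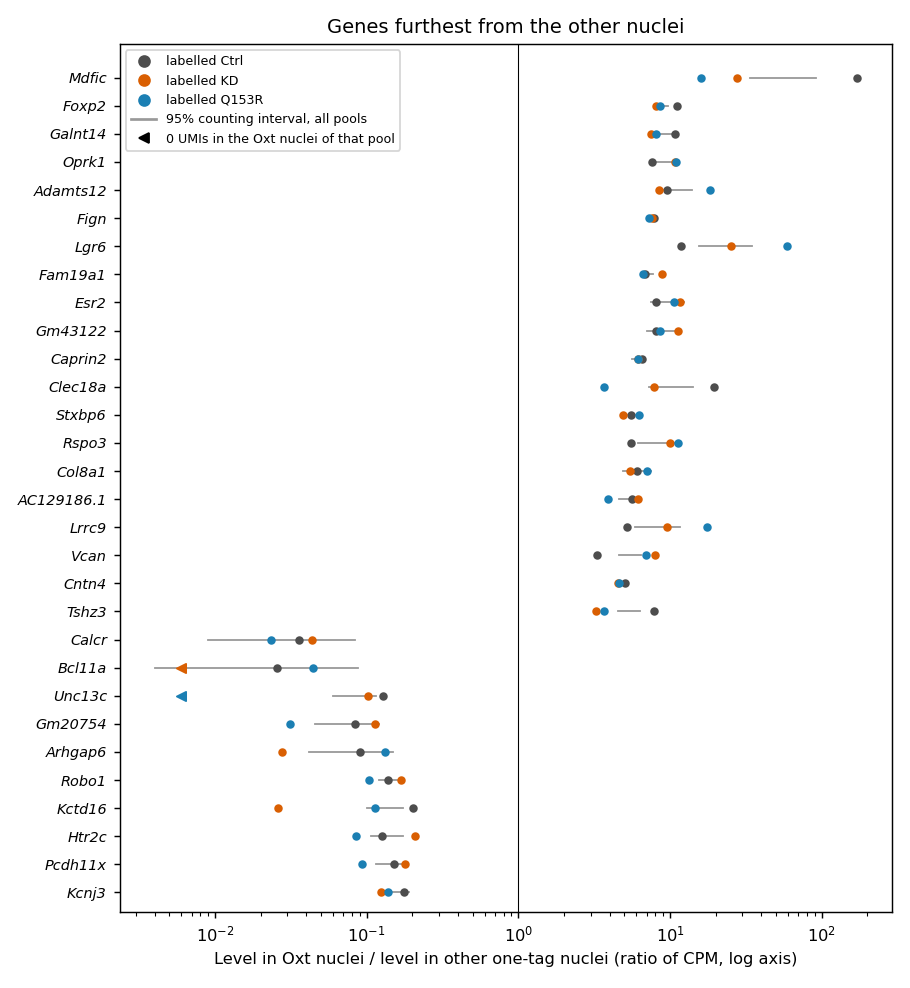
Ratio of the level in Oxt nuclei to that in other single-tag nuclei for the 20 highest and 10 lowest ranked genes, on a log axis. Points are the 3 pools, grey lines the 95% counting interval over all pools, and triangles mark pools with 0 UMIs in the Oxt nuclei. For the highest genes all 3 points lie right of 2, and of these genes Mdfic shows the widest spread among pools.

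The 222 Avp nuclei (75, 70 and 77) were the population most like the Oxt nuclei by their peptide. Of 4542 counted genes, 197 (4.34%) were at least 2 times higher in Oxt nuclei in each pool and 84 (1.85%) at most 0.5 times as high. Here too 124 of the 197 met the UMI minimum by their observed UMIs only and 35 of the 84 by their expected UMIs only. Genes common to both populations included the neuroendocrine factors Sim1 (911 and 803 CPM in Oxt and Avp nuclei), Pou3f2 (175 and 206 CPM) and Otp (113 and 130 CPM). Caprin2 (400 and 422 CPM), Fign (1346 and 858 CPM) and Cadps2 (867 and 707 CPM) were likewise high in both. These genes set the Oxt nuclei apart from the sorted nuclei at large more than from the Avp nuclei.

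Hormone receptors gave some of the widest gaps between the 2 hormone populations. Esr2 had 0 UMIs among 1269010 in the Avp nuclei, which allows up to 2.36 CPM over the group (3 counts), beside 82.5 CPM in the Oxt nuclei. The lower limit of the ratio was 27.8. Prlr, the prolactin receptor, stood at 140, 175 and 147 CPM against 5.52 CPM (27.3, 13–69.0). Prlr was only 1.38 times the level of the other nuclei, so it marked Oxt nuclei off from Avp nuclei and not from the rest. Oprk1 was 8.11 times higher than in Avp nuclei and Lgr6, at 46.1 against 1.58 CPM (2 UMIs), 29.3 times. In contrast Thrb, thyroid hormone receptor beta, was lower, at 96.7 against 313 CPM.

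Of 21 counted transcription factors, 4 were higher and 4 lower than in Avp nuclei, beside 4.34% and 1.85% of all counted genes. Zfhx3 (435 against 80.4 CPM), Zfhx4 (208 against 22.1 CPM), Npas3 (250 against 40.2 CPM) and Foxp2 (2075 against 865 CPM) were higher in Oxt nuclei. Ebf3 was at 11.5 CPM against 561 CPM, Bcl11a at 1.77 against 211 CPM and Tcf4 at 152 against 604 CPM. Bcl11b was not found among 1127117 UMIs, which allows 2.66 CPM, beside 52.0 CPM in the Avp nuclei. The upper limit of the Bcl11b ratio was 0.0647. Foxp2 was thus shared with Avp nuclei at a lower level, while the Ebf3 and Bcl11 genes were almost confined to the Avp side of this pair. Sox5, outside the list, was at 470 against 41.8 CPM.

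Among transmitter, channel and synaptic genes, Nos1 was at 122 against 7.88 CPM (15.5, 8.20–33.1), and the calcium release channel Ryr3 at 127 against 21.3 CPM. Trpc4 (73.6 against 5.52 CPM) and Trpc5 (113 against 799 CPM), members of 1 cation channel family, differed in opposite directions. Kcnn2, a small-conductance calcium-activated potassium channel, was at 131 against 28.4 CPM. Glutamate receptor genes were divided as well: Grin2a (594 against 44.1 CPM) was higher and Grik1 (134 against 829 CPM) lower. Reln, a secreted glycoprotein, was at 310 against 28.4 CPM (10.9, 7.73–15.8) and Sema3a, a guidance cue, at 111 against 4.73 CPM. Galnt14, at 229 against 2.36 CPM (3 UMIs in the Avp nuclei), and the long transcript Gm28928, at 706 against 2.36 CPM, were nearly without signal in the Avp nuclei. Galntl6 (1629 against 12267 CPM), Gnas (549 against 1531 CPM) and Dlk1 (37.3 against 282 CPM) were lower in the Oxt nuclei.

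**Figure D4:**
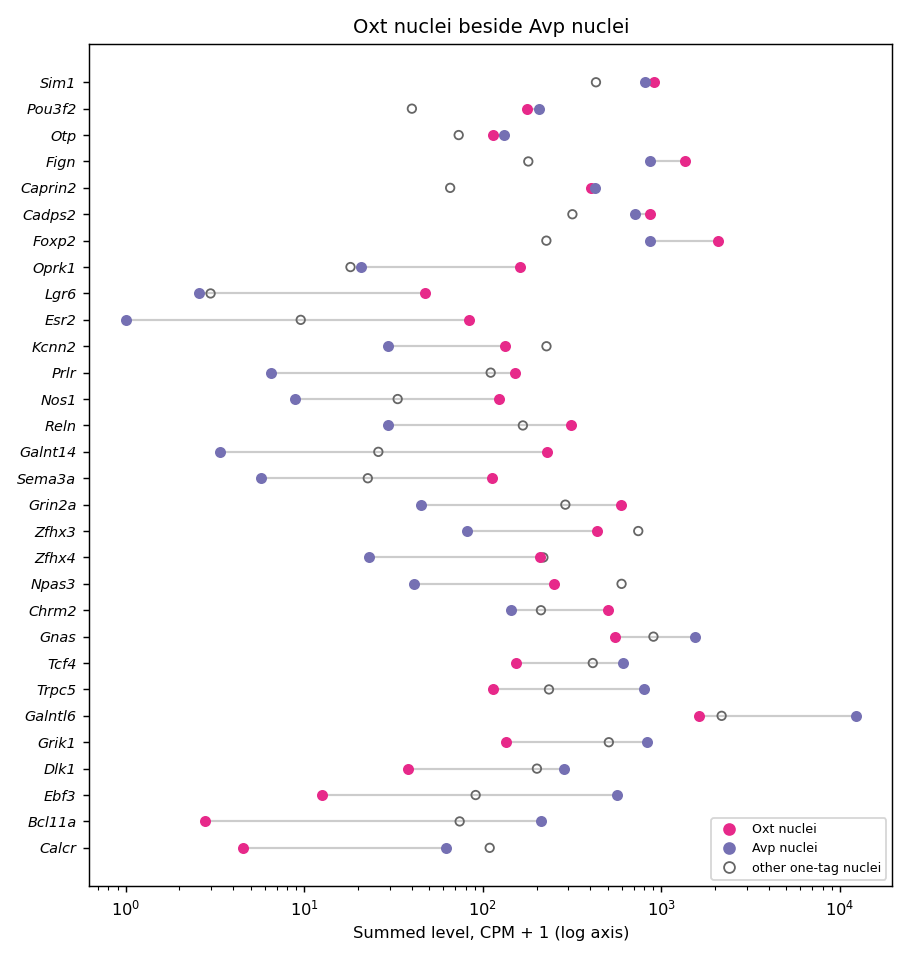
Summed levels of 30 genes in Oxt nuclei, Avp nuclei and all single-tag nuclei other than Oxt nuclei, as CPM plus 1 on a log axis, all pools together. The last group includes the Avp nuclei. The genes were picked for display after their values were seen. The upper genes from Sim1 to Cadps2 lie close together in both hormone populations, those from Oprk1 to Chrm2 are higher in Oxt nuclei and those from Gnas to Calcr higher in Avp nuclei.

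Genes used in the field to tell magnocellular from parvocellular oxytocin neurons gave no clear assignment of the group as a whole. The magnocellular marker Kcnmb4, a subunit of large-conductance potassium channels, stood at 76.4, 131 and 130 CPM against 41.7 CPM in the other nuclei, and was 1.87 times as high in the pool labelled Ctrl. It was higher still in Avp nuclei, at 184 CPM against 105 CPM over all Oxt nuclei. The other magnocellular marker, Calb1, was at 61.5, 47.1 and 109 CPM against 61.5 CPM. Of the parvocellular markers, Cnr1 was at 46.6, 70.6 and 44.4 CPM against 51.0 CPM, and Reln at 294, 387 and 259 CPM against 166 CPM. None of the 4 passed 2-fold in every pool, against 2.56% of all counted genes. Reln UMIs were found in 51 of 151 nuclei with up to 2627 CPM in 1 nucleus, so its level was carried by a minority. At 2000 UMIs, Reln was seen in 22.6% of Oxt nuclei, 14.2% of all other nuclei, 13.3% of GABAergic-marker nuclei and 7.95% of glial-marker nuclei.

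To see how the Oxt nuclei vary among themselves, they were split into tertiles of Oxt CPM within each pool, giving 51, 51 and 49 nuclei with a median Oxt of 4571, 8593 and 14022 CPM. Depth ran the other way, with median totals of 7894, 6972 and 6091 UMIs, and Oxt CPM and total UMIs had a Spearman correlation of -0.33 over 151 nuclei. The role of depth in what follows was not tested. From the lower to the upper tertile, Sim1 stood at 769, 947 and 1095 CPM, Stxbp6 at 375, 668 and 723 CPM, and Foxp1 at 444, 735 and 699 CPM. Foxp2 varied little, at 1944, 2181 and 2151 CPM. Oprk1 stood at 107, 201 and 191 CPM, lowest in the lower tertile, which holds the nuclei nearest the rule's Oxt minimum. Several genes that were lower in Oxt nuclei than elsewhere had their highest level in the lower tertile: Trpm3 at 664, 338 and 129 CPM, Robo1 at 334, 69.8 and 97.3 CPM, Htr2c at 103, 37.6 and 24.3 CPM, Kctd16 at 92.1, 24.1 and 17.4 CPM, and Kcnj3 at 133, 32.2 and 62.6 CPM. These were picked after their values were seen. Klf12 also had its highest level in the lower tertile, at 250.7, 182 and 142 CPM. Ebf1 was highest in the middle tertile, at 66.4 and 75.1 CPM in the lower and middle tertiles. It had no UMI in the upper, where the upper limit of its ratio to the lower was 0.205. Avp was at 270, 204 and 247 CPM, and the interval of its upper to lower ratio included 1 (0.914, 0.673–1.23). Htr2c and Kctd16 rested on few counts, 69 UMIs in 22 Oxt nuclei and 57 UMIs in 21.

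Across nuclei the genes whose level went most closely with Oxt did so only weakly. Among 1044 genes with at least 200 UMIs in the Oxt nuclei, the highest Spearman correlations of log CPM with Oxt over 151 nuclei were those of Ddx5 (0.31), Stxbp6 (0.30), Fam19a1 (0.29), Elavl2 (0.29), Ptprr (0.29), Lrrc4c (0.26), Mast4 (0.24), Dpp6 (0.23), Gria3 (0.23) and Lrrtm3 (0.23). The points share a library and differ in depth, and values of this size in sparse counts are given as a ranking only. Stxbp6 and Fam19a1 were also among the genes highest against the other nuclei.

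The share of Oxt nuclei was compared between pools because the study asked whether altered Otp changes PVH neuron populations. It was 3.31% of nuclei labelled Ctrl (2.56–4.19), 2.67% of those labelled KD (1.88–3.68) and 3.14% of those labelled Q153R (2.34–4.12). Relative to Ctrl the share was 0.808 times as high in KD (0.522–1.23) and 0.951 times as high in Q153R (0.644–1.40). Both intervals include 1, and a loss or a gain within them was not detectable at this depth.

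Summed over Oxt nuclei, Oxt stood at 9048 CPM (8796–9307) for Ctrl, 8881 CPM (8545–9226) for KD, and for Q153R 7796 CPM (7480–8123). Set against Ctrl, KD stood at 0.981 times (0.936–1.03) and Q153R at 0.862 times (0.819–0.906), the latter between 0.747 and 0.948 over the alternative settings that moved it. The 0.948 came from nuclei thinned to 2000 UMIs and chosen by the same minimums after thinning. Its interval, 0.864–1.04, includes 1. The distributions of single nuclei overlapped almost completely, as the ranges above show. Since the rule selects on Oxt and the Q153R pool was shallower, this difference is a description and its relation to depth cannot be told apart from one to genotype.

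Otp, the gene altered in the mice, was read first among genes by pool. It stood at 59.6 CPM (40.8–84.1) in Oxt nuclei labelled Ctrl, at 125 CPM (87.6–172) for KD, and at 198 CPM (150–256) for Q153R. It was therefore not lower in the pool labelled KD but 2.09 times as high as in Ctrl (1.27–3.46), and 3.32 times as high in Q153R (2.12–5.29). The other single-tag nuclei had the same order at 45.0, 74.0 and 108 CPM. Counts over the whole gene do not separate the wild-type from the altered allele, and the labels do not say which part of the gene is floxed, so this does not check the label KD. Otp also stood higher in Q153R than in Ctrl under every alternative setting tried, at 2.57 to 4.72 times, and in KD at 1.69 to 2.46 times. At an equal depth of 2000 UMIs the interval for KD included 1 (2.04, 0.761–5.46), while that for Q153R did not (2.57, 1.11–6.29).

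Wdr41, which follows Otp on the plus strand of chromosome 13 with no protein-coding gene between and starts 91213 bases beyond its end, had the highest ratio of all ranked genes between KD and Ctrl. Wdr41 encodes a partner of the C9orf72 complex of autophagy. In Oxt nuclei it stood at 59.6, 468 and 71.7 CPM, a ratio to Ctrl of 7.85 (5.31–11.9) in KD, which was 4.48 at equal depth, and 1.2 (0.659–2.15) in Q153R. In the other nuclei it stood at 49.5, 240 and 74.8 CPM. A Wdr41 UMI was found in 33 of 36 Oxt nuclei labelled KD, 25 of 65 labelled Ctrl and 16 of 50 labelled Q153R. The high level was thus spread over nearly all Oxt nuclei of that pool. The other listed genes of the region, Tbca (171, 172 and 150 CPM), Pde8b (391, 367 and 433 CPM) and Ap3b1 (129, 165 and 126 CPM), did not reach 1.5-fold in either direction. Sim1, which drives Cre, was at 901, 878 and 963 CPM.

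Between KD and Ctrl, 162 of 3249 genes with at least 50 UMIs over both pools' Oxt nuclei (4.99%) were at least 1.5 times higher and 322 (9.91%) at most 1/1.5 as high. In the other single-tag nuclei the same genes gave 5 (0.154%) and 3 (0.0923%). The Oxt nuclei hold far fewer UMIs per gene than the other nuclei, and the part of counting error in these counts was not tested. With the median ratio of all counted genes set to 1, the counts were 209 higher and 270 lower, so the excess of lower genes depends on the scaling. Besides Wdr41, the highest ratio was that of Kirrel3, a cell adhesion molecule, at 1127 CPM in KD against 363 CPM in Ctrl (3.10, 2.59–3.72) and at 573 CPM in Q153R. Maml3, a Notch co-activator, was at 612 against 210 CPM (2.91, 2.29–3.71), and Vcan at 235 against 96.9 CPM (2.43, 1.67–3.55). At the other end Ghr, the growth hormone receptor, was at 232 CPM in KD against 564 CPM in Ctrl (0.411, 0.312–0.536), and the imprinted gene Nnat at 158 against 391 CPM (0.404, 0.288–0.557).

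Ghr and Nnat were lower in KD in the other nuclei too, at ratios of 0.708 and 0.823, and both stood in Q153R near their Ctrl level (608 and 423 CPM). Single nuclei overlapped widely: the median Ghr was 206 CPM in Ctrl and 108 in KD, with highest values of 5164 and 1205. The KD values of Kirrel3, Maml3, Vcan, Ghr and Nnat kept their direction in all 12 alternative settings, among them the one without the 5 nuclei that carried markers of another cell type. Their size moved more: Nnat was at 0.243 at equal depth and Ghr at 0.269 without the nuclei above the 90th percentile of UMIs. Npas3 was at 444 against 209 CPM, but the ratio of 2.13 became 1.5 without those 5 nuclei and 0.728 at equal depth. The other ranked genes were Arhgap10, Gm28050, Plppr1, D430042O09Rik and Zfp385b, higher by 2.57 to 2.87 times, and Epb41l5, Glra2, Itgb8, Wdr47, Nkain3, Mdfic, Clvs2 and Tle1, at 0.231 to 0.369 of the Ctrl level, all but Nkain3 with under 10 UMIs in KD. The KD pool also had the highest female share (83.3%) and the highest astrocyte-marker level (168 CPM), whose part in the shorter lists was not tested.

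Between Q153R and Ctrl, 172 of 3283 genes (5.24%) were at least 1.5 times higher and 251 (7.65%) at most 1/1.5 as high, beside 4 (0.122%) and 3 (0.0914%) in the other nuclei. Apart from Otp, the highest ratios included Abcb10, a mitochondrial transporter, at 130 against 33.5 CPM (3.87, 2.15–7.20), and Adra1a at 154 against 68.9 CPM (2.23, 1.41–3.54). At an equal depth of 2000 UMIs Adra1a was at 1.21 (0.415–3.41), so its difference was not detectable there, and Abcb10 was at 18.2 (2.69–777). In the other nuclei Abcb10 was at 69.5 against 56.5 CPM and Adra1a at 35.1 against 33.9 CPM. The lowest included Mgat4c, a glycosyltransferase, at 85.3 against 341 CPM (0.25, 0.158–0.381), Ptprk, a receptor phosphatase, at 126 against 330 CPM (0.383, 0.261–0.549), and Inpp4b, a phosphoinositide phosphatase, at 249 against 603 CPM (0.413, 0.316–0.534). The first 2 depended on the rule: with Oxt minimums of 5 UMIs and 500 CPM, Mgat4c was at 0.687 and Ptprk at 0.677, while at equal depth Ptprk was at 0.151 (0.0296–0.487). Inpp4b lay between 0.386 and 0.547 over the 12 alternatives. None of these 3 was lower in the other nuclei, where the ratios were 1.04, 1.27 and 1.04. Mgat4c was carried by few nuclei: its median was 0 in every pool, and its highest nucleus held 5046 CPM in Ctrl and 1195 in Q153R. Inpp4b was spread more evenly, with medians of 504, 275 and 178 CPM in Ctrl, KD and Q153R, so KD lay between the other pools. The remaining ranked genes were Mid1, Krcc1, Adamtsl1, Lemd3, Asap2, Ubash3b and Arhgap10 above Ctrl by 2.06 to 2.79 times, and Gdpd1, Sms, Kctd8, Ap4s1, Sv2c, Cntn3 and Tmem132b at 0.204 to 0.414 of it.

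Of the genes highest against the other nuclei, some were at like levels in the 3 pools and others were not. Foxp2 was at 2049, 2190 and 2007 CPM, Pou3f2 at 179, 172 and 171 CPM and Fign at 1285, 1362 and 1440.5 CPM. Oprk1 was at 1.34 and 1.26 times its Ctrl level in KD and Q153R. By contrast Clec18a was at 65.2, 43.7 and 20.5 CPM, Tshz3 at 209, 104 and 99.0 CPM and Vcan at 96.9, 235 and 171 CPM, beside the spread of Mdfic and Lgr6 given above. Of the listed groups by pool, 2 of 17 counted transcription factors were higher in KD and 1 lower, 4 of 39 counted channels were higher and 5 lower, and 0 of 17 processing and granule genes were higher and 3 lower. For Q153R against Ctrl the corresponding counts were 1 and 3 of 16, 3 and 3 of 38, and 1 and 1 of 17. These shares lie near those of all counted genes given above or rest on very few genes.

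Between Q153R and KD, 204 of 2347 genes (8.69%) were at least 1.5 times higher and 158 (6.73%) at most 1/1.5 as high, beside 6 (0.256%) and 2 (0.0852%) in the other nuclei. With the median ratio set to 1 the counts were 179 and 178. Wdr41 was again at the end of the ranking, at 0.153 of the KD level (0.0920–0.244), followed by Maml3 at 0.234 (0.163–0.329). Ghr and Nnat were 2.62 and 2.68 times as high as in KD. These values share the KD pool with the comparison of KD and Ctrl and are not independent of it.

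**Figure D5:**
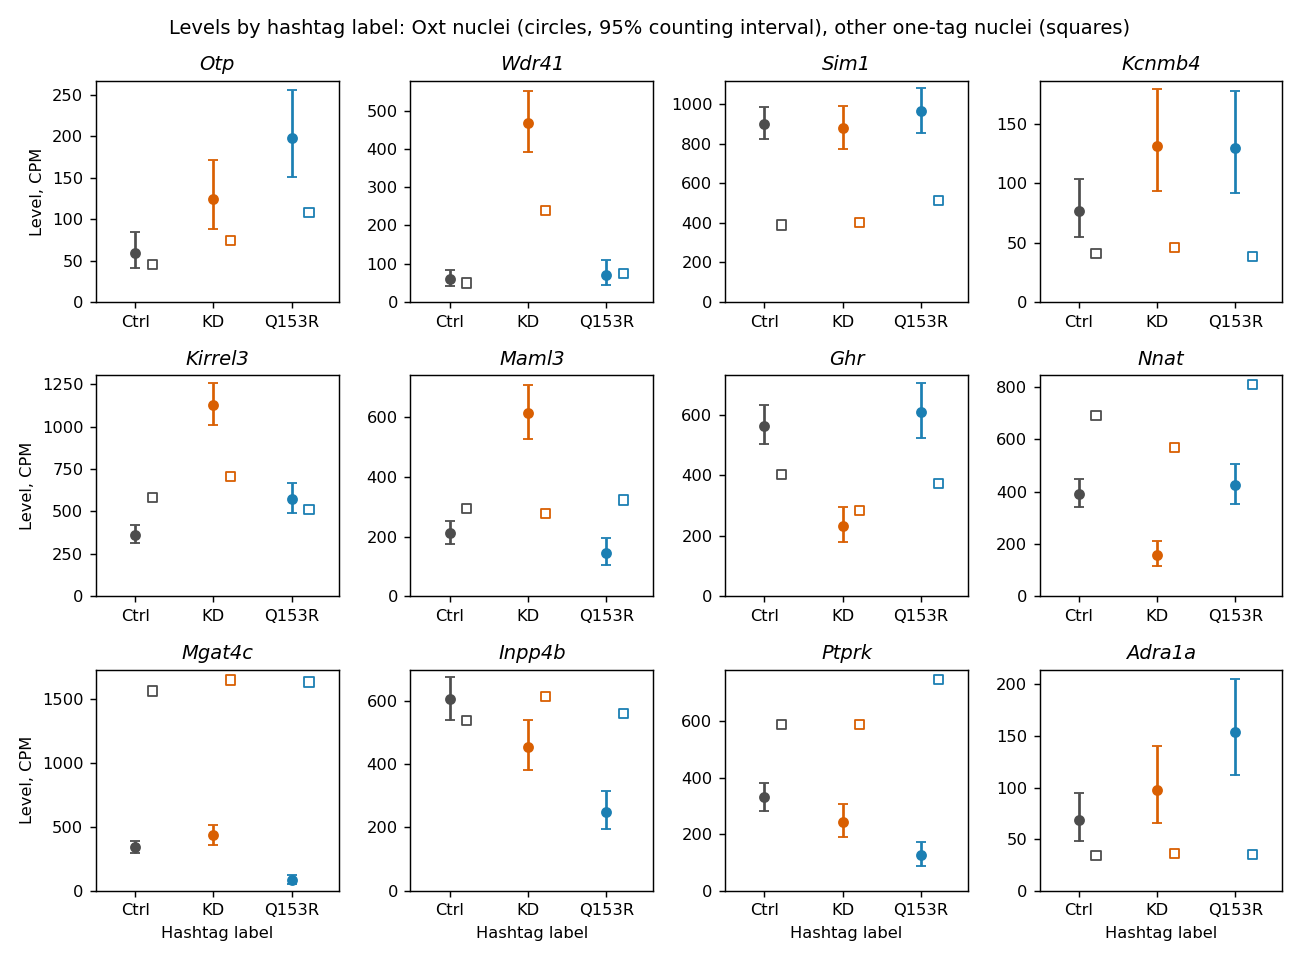
Levels of 12 genes by hashtag label, in CPM on axes that start at 0; circles are Oxt nuclei with 95% counting intervals and open squares the other single-tag nuclei of the same pool. Otp is ordered Ctrl, KD, Q153R in both kinds of nuclei, Wdr41 is high in KD in both, and Kirrel3, Maml3, Ghr and Nnat set KD apart from the other pools in Oxt nuclei; the genes were picked for display after their values were seen.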

How the data were processed

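The authors deposited 1 matrix of raw UMI counts for 6173 barcodes, 31053 genes and 3 hashtags, made with Cell Ranger: version 7.0.0 per the file headers, 6.0.0 per the submitters' processing notes, with build mm10. The hashtag library was read through this matrix and is otherwise not analysed here. Barcodes with at least 500 genes and exactly 1 hashtag at or above its minimum (105 Ctrl, 61 KD, 37 Q153R UMIs) were kept. Barcodes with more than 1 tag were removed as doublets, no doublet caller was run, and doublets within a pool could remain. Counts were summed over nuclei and divided by their summed gene UMIs (CPM). Intervals are exact 95% Poisson, Clopper-Pearson or conditional binomial intervals and cover counting error only; a count of 0 allows 3. No p-value was computed, since each genotype was 1 pool and the nuclei were chosen by their own expression. For shares of nuclei with a UMI, nuclei were thinned to 2000 UMIs and shallower ones left out.

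Genes were counted from 50 UMIs. Against other or Avp nuclei a gene was called at 2-fold in each pool, and between pools at 1.5-fold. Named beyond the lists were the 20 highest and 10 lowest ratios against other nuclei (5 CPM added), and per pair of pools the 10 highest and 10 lowest (20 CPM added) among genes seen in at least 10 nuclei with no nucleus above 25% of the UMIs. Genes named beyond the lists against Avp nuclei were chosen after their values were seen. The members and all lists were chosen with earlier results of these data known. Alternatives changed the tag, gene, Oxt and UMI minimums, depth, sex mix, scaling and comparison nuclei. Leaving out 5 nuclei with 5 or more UMIs of another cell type's markers was added after seeing the data. The calculations were checked on simulated counts and run in Python 3.11.15 with numpy 2.4.6, scipy 1.17.1, pandas 2.3.3 and matplotlib 3.10.9. There were 0 unmapped value columns.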

Additional observations from a re-analysis of the deposited data

Results flagged for a closer look

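Of 66 ratios between pools looked at, 14 had intervals that excluded 1 on opposite sides in Oxt nuclei and in other single-tag nuclei. Both kinds of nuclei came from the same pools. Ratios on opposite sides of 1 were not counted when either interval included 1. Most of the 66 were the ratios ranked highest or lowest in Oxt nuclei, so they were picked for being extreme there. The difference between the 2 kinds of nuclei was not tested. Between KD and Ctrl the counted ratios were those of Itgb8 and Maml3. Itgb8, an integrin subunit, was at 0.287 in Oxt nuclei and 1.2 in the others, and Maml3 at 2.91 and 0.940. Between Q153R and Ctrl, Oxt itself was at 0.862 in Oxt nuclei and 1.13 in the others, where it was low, at 157 and 139 CPM. The rule split the nuclei by Oxt, so its flags here and between Q153R and KD describe that choice and are not a result. Mgat4c was at 0.25 and 1.04, Kctd8, an auxiliary subunit of GABA-B receptors, at 0.316 and 1.12, Ptprk at 0.383 and 1.27, and Inpp4b at 0.413 and 1.04. Sv2c, a synaptic vesicle protein, was at 0.317 and 1.22, and Cntn3, a contactin, at 0.414 and 1.13. Krcc1 was at 2.75 and 0.751, and Lemd3, an inner nuclear membrane protein, at 2.25 and 0.899. Between Q153R and KD, Oxt was at 0.878 and 1.24, Maml3 at 0.234 and 1.17, and Cntn3 at 0.322 and 1.05. Itgb8 rested on 7 UMIs in the KD pool and Sv2c on 9 in Q153R.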

How the results depend on the processing

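The share of Oxt nuclei relative to Ctrl stayed within 0.700 to 0.890 for KD and 0.811 to 1.30 for Q153R over the alternatives tried. The Oxt ratio of Q153R to Ctrl was 0.782 with Oxt minimums of 5 UMIs and 500 CPM, 0.920 with 20 UMIs and 2000 CPM, 0.948 after thinning to 2000 UMIs, 0.747 without nuclei above the 90th percentile of UMIs and 0.809 as a mean of single nuclei. That of KD to Ctrl was 1.12 after thinning, 0.897 in Xist nuclei only and 1.03 as a mean of single nuclei, so its direction was not stable. The counts of genes depended on depth and on the UMI minimum. After thinning they were 48 higher and 71 lower against other nuclei, 83 and 47 against Avp nuclei, 47 and 40 for KD to Ctrl, 37 and 42 for Q153R to Ctrl, and 26 and 40 for Q153R to KD. Without the deepest nuclei, 199 genes were lower for KD to Ctrl and 139 for Q153R to Ctrl. With a minimum of 20 UMIs, 213 were lower against other nuclei, 318 higher and 128 lower against Avp nuclei, and the pairs of pools gave 614 and 1029 (KD to Ctrl), 674 and 818 (Q153R to Ctrl) and 781 and 565 (Q153R to KD). With 200 UMIs these were 44 and 54 against other nuclei, 82 and 48 against Avp nuclei, then 22 and 17, 10 and 19, and 22 and 27 for the pairs. Direction was followed only for genes whose interval excluded 1 before any alternative. No such gene turned direction among the 1248 values against other nuclei or the 1165 against Avp nuclei. Between pools, thinning turned such genes as follows: Plppr1 (0.612) and Npas3 (0.728) for KD to Ctrl, Sv2c (1.21), Adamtsl1 (0.865) and Lgr6 (0.757) for Q153R to Ctrl, and Npas3 (1.04) and Nrcam (2.6) for Q153R to KD. Genes whose interval held 1 could turn without being listed, such as Wdr41 for Q153R to Ctrl, which fell below 1 after thinning (0.909). Without the deepest nuclei Npas3 was at 0.990 for KD to Ctrl and 1.0002 for Q153R to KD. The cause was not tested. No paired analysis was possible because each genotype was 1 pool of mice in 1 library.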
